A study of Homo sapiens with 12 samples.

Results

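HaCaT_ctrl is the unstimulated control line of the series, and its 3 libraries, among 12 in all, are described here on their own. HaCaT is a spontaneously immortalized human keratinocyte line. The HaCaT_ctrl cells had been transduced with a doxycycline-inducible lentiviral vector that carries a scrambled shRNA, and were then selected on puromycin. The remaining 9 libraries come from unstimulated cells with an shRNA against IQGAP3, and from both lines under a mix of IFNγ, TNFα and IL17. The labels give the HaCaT_ctrl libraries as biological replicates of unstimulated cells. The methods of the study describe doxycycline in the sequenced cultures without a separate account of the unstimulated arm, so whether these cells received it cannot be told from the sources used here. The sources also do not say whether the selected line is a pool or 1 clone. The members were chosen by label alone, and nothing in this account is a comparison between groups.

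Keratinocytes build the stratified epithelium of the skin. Cells of its basal layer carry a keratin 5 and keratin 14 filament network, are anchored to the basement membrane by hemidesmosomes, and are held to each other by desmosomes and adherens junctions. On leaving that layer they switch to keratins 1 and 10 and then to the proteins of the cornified envelope, the crosslinked shell of the dead surface cell. Keratins assemble only as pairs of a type I and a type II chain, whose genes lie in clusters on chromosomes 17 and 12, with KRT18, a type I gene, standing beside the type II genes.

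The libraries held 13982913, 15855853 and 16999594 counts in replicates 1, 2 and 3. Levels are given as CPM, the counts of a gene per 1000000 counts of the library. Where different genes are set against each other the level is CPM per kb of exon, because a longer transcript yields more fragments. A gene was taken as expressed if 2 or more of the 3 libraries gave it 1 CPM or more, which held for 13568 of 57370 genes (23.6%). A further 11926 genes had counts below that threshold, and 31876 had no count in any of the libraries, which allows a level of up to 0.0641 CPM over the pooled libraries (3 counts, counting error only). Of 19404 protein-coding genes, 11838 were expressed and 3947 had no count. The counts of expressed list members below are to be set against that share of protein-coding genes. A count near it is no result about the list. The median expressed gene stood at 28.9 CPM and 8.97 CPM per kb, and these are the levels against which the lists below can be read.

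The identity given in the labels was checked against markers of keratinocytes. KRT5 reached 4080, 4043 and 3970 CPM in replicates 1, 2 and 3, KRT14 reached 2171, 2065 and 2046 CPM, and KRT4 reached 2169, 2148 and 2114 CPM. These genes therefore belonged to the most strongly read of the genome in every library. KRT15, TP63, ITGB4, COL17A1 and DSG3, further genes of the basal keratinocyte, averaged 1759, 234, 813, 840 and 594 CPM. KRT4 is known from the suprabasal layers of mucosal epithelia such as the oesophagus rather than from the epidermis, and it stood here beside the epidermal basal pair. Other values are not those of a basal epidermal profile. KRT13, a further mucosal keratin, averaged 5508 CPM, SCGB1A1, known from airway club cells, 1325 CPM, FOXA1, a factor of inner epithelia, 77.5 CPM and NKX2-1, a factor of lung and thyroid, 8.86 CPM, while VIM, which many cultured lines express, averaged 2.14 CPM. The keratinocyte markers were thus all expressed, but the identity of the line as HaCaT was not tested beyond these levels, and the name is used here as the labels give it.

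The 60 bases upstream of a gene's start hold part of its core promoter, and those of KRT5, KRT4 and EEF1A1 are shown because these genes are among the most abundant and differ in whether they hold the letters TATAA, the core of a TATA box. The sequences are from RefSeq on GRCh38.p14, all on the minus strand, at chr12:52520395-52520454 for KRT5, chr12:52814117-52814176 for KRT4 and chr6:73521033-73521092 for EEF1A1. TATAA is in capitals.
KRT5: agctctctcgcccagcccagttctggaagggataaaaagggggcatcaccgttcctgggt
KRT4: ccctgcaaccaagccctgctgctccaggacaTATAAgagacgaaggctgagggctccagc
EEF1A1: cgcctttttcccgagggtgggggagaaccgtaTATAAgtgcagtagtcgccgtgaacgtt
The motif begins 29 bases before the start in KRT4 and 28 bases before it in EEF1A1, and the KRT5 window does not hold it. Only the exact letters TATAA were searched. The KRT5 window holds the similar letters ataaaa at about the same place, and whether they act as a TATA box was not tested. Within 50 bases before the start and on the strand of the gene, TATAA was found in 5.12% of all 27305 promoters of the table and in 3.07% of the 10206 promoters of expressed genes. It was found in 18 of the 77 promoters matched among the 100 nuclear genes with the highest level per kb (23.4%). On the other strand (TTATA) the same sets gave 2.71%, 1.14% and 7.79%. The 77 promoters were of unlike kinds: TATAA was in 5 of the 41 of ribosomal protein genes (12.2%) and in 13 of the other 36 (36.1%). Among keratins TATAA was found in 4 of 9 matched promoters of expressed members and in 11 of 16 of members with no count.

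The 20 genes with most counts held 10.4% of the pooled counts and 963 genes held 50% of them. Genes encoded by the mitochondrial genome took 5.86%, 6.47% and 6.04% of replicates 1, 2 and 3, led by MT-CO1, a subunit of cytochrome c oxidase, at 11925 ± 591 CPM (SD, n = 3). The 85 cytosolic ribosomal protein genes took 5.87% of the pooled counts. Outside the mitochondrial genome, the 5 genes with the most reads were the translation elongation factor EEF1A1 (10077 ± 124 CPM), KRT13 (5508 ± 244 CPM), the ferritin heavy chain FTH1 (5364 ± 215 CPM), the insulin-like growth factor binding protein IGFBP3 (4548 ± 329 CPM) and KRT5 (4031 ± 55.9 CPM). The list of 25 also held TPT1, EEF2, AHNAK, RPLP0, KRT19, PKM, RPL4, RPL7A, KRT4, ANXA2, KRT14, B2M, RPS3, PABPC1, GAPDH, KRT15, RPS2, TRIM29 and RPL13A, and 6 of its members were keratins. EEF1A1, FTH1 and many ribosomal protein genes have processed copies elsewhere in the genome that can share their reads, and their counts are uncertain to that extent.

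Per kb of exon, FTH1 led the nuclear genes with 4515, 4603 and 4259 CPM per kb in replicates 1, 2 and 3. KRT13 followed with 3214, 3355 and 3071 CPM per kb. The third was SCGB1A1, which encodes secretoglobin 1A1 (uteroglobin), a secreted protein known from club cells of the airway, with 2933, 3115 and 2923 CPM per kb. EEF1A1 came next with 2870, 2905 and 2834 CPM per kb, so its library range overlapped neither KRT13 nor SCGB1A1. Ribosomal proteins made up 51 of the 100 highest genes per kb, keratins 7, and the small calcium-binding S100 proteins 4. The order depends on the exon length used: over all annotated exons of each gene in place of the canonical transcript, FTH1 had 2677, SCGB1A1 2268, KRT13 1891 and EEF1A1 1001 CPM per kb.

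**Figure D1:**
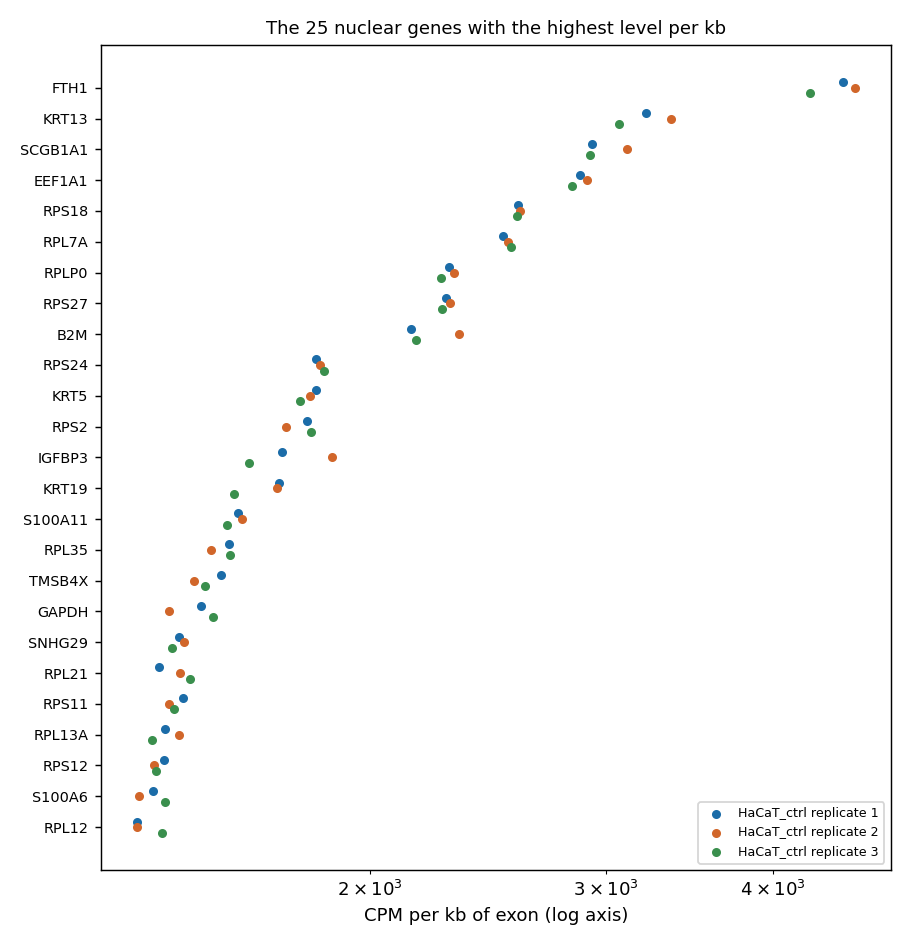
CPM per kb of exon (log axis) of the 25 nuclear genes with the highest mean level, with 1 point for each HaCaT_ctrl library. FTH1 stands highest at 4259 to 4603 CPM per kb, and most of the genes below SCGB1A1 encode ribosomal proteins.

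Of 54 keratin genes, 24 were expressed, 12 had counts below the threshold and 18 had no count. Of the 28 type I genes 11 were expressed and 13 had no count, and of the 26 type II genes 13 were expressed and 5 had no count. Keratins together held 2.12%, 2.12% and 2.04% of the counts of replicates 1, 2 and 3, and KRT13, KRT5, KRT19, KRT4 and KRT14 made up 76.9% ± 0.386 of that (SD, n = 3). The summed level of type I genes was 7455 ± 295 CPM per kb and that of type II genes 4202 ± 76.6 CPM per kb (SD, n = 3). Their ratio was 1.77 ± 0.0842, and it was 1.81 over all annotated exons.

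The highest keratin was not a basal one. KRT13 (chr17:39657233-39661957, GRCh37), the type I keratin of non-cornifying mucosa and the known partner of KRT4, averaged 3213 ± 142 CPM per kb (SD, n = 3). KRT4 (chr12:53200333-53207900) averaged 1001 CPM per kb, and the ratio of KRT13 to KRT4 was 3.17, 3.34 and 3.11 in the libraries. The excess of the type I partner held in every library, and over all annotated exons the ratio was 2.54.

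The basal keratins KRT5, KRT14 and KRT15 were all expressed. KRT5 (chr12:52908359-52914314) averaged 1801 ± 25.0 CPM per kb and KRT14 (chr17:39738531-39743147) averaged 1280 ± 41.2 CPM per kb (SD, n = 3). KRT14 stood at 0.710 ± 0.0153 of KRT5, and at 0.952 over all annotated exons, so how far this pair departs from equality rests on the length taken. KRT15, a type I keratin of basal cells, had 1026, 1105 and 952 CPM per kb in replicates 1, 2 and 3. That range overlapped that of KRT4, and the level of KRT15 fell to 295 CPM per kb over all annotated exons, since its annotation holds long alternative exons (5969 bases merged, against 1712 in the canonical transcript).

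All 5 keratins of simple epithelia, the single-layered linings of inner organs, were expressed. KRT19 averaged 1667 ± 71.2 CPM per kb, KRT7 724 ± 47.2, KRT8 361 ± 16.9, KRT18 106 ± 2.40 and KRT20 3.13 ± 0.313 CPM per kb (SD, n = 3). KRT19, which lacks the tail domain of other type I keratins, therefore stood above KRT14 in every library. KRT18 was at 0.294 ± 0.00730 of its partner KRT8, and at 0.523 over all annotated exons. KRT8 and KRT18 overlap on opposite strands and both have processed copies, so the split of reads between them is uncertain.

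The suprabasal pair was low beside the basal one. KRT10 had 158, 151 and 145 CPM and KRT1 had 26.5, 24.7 and 24.9 CPM in replicates 1, 2 and 3. Per kb KRT10 stood 6.82 ± 0.174 times as high as KRT1 (SD, n = 3), and KRT2, the type II keratin of the upper epidermis, had 12 counts over the libraries together. KRT77 and KRT9, a keratin of palm and sole skin, averaged 7.02 and 8.13 CPM. Of the keratins linked to activation and wounding, KRT6A averaged 578 ± 14.2 CPM, KRT17 114 ± 11.7 CPM and KRT16 7.36 ± 0.587 CPM. KRT16 was thus at 0.0177 ± 0.00136 of KRT6A per kb. KRT16P6, annotated as a pseudogene of KRT16, averaged 14.2 CPM. How reads were split between it and KRT16 was not tested, so the level of KRT16 and this ratio are uncertain. KRT6B had 2 counts and KRT6C 13 counts in all, and because these genes are nearly identical to KRT6A the assignment among the 3 is uncertain.

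Among the other keratins, KRT80 averaged 175 CPM, KRT3 7.57 CPM, KRT23 6.71 CPM, KRT79 1.75 CPM and KRT74 1.11 CPM, while KRT78 with 39 counts and KRT76 with 8 counts did not reach the threshold. Only 3 of 26 hair follicle keratins were expressed, KRT81, KRT74 and KRT86, each at under 5 CPM. KRT81 had 1.72, 1.64 and 4.06 CPM in replicates 1, 2 and 3, so replicate 3 stood apart there. KRT86 overlaps both KRT81 and the abundant KRT7, and its 46 counts are uncertain for that reason. KRT33A had 8 counts, KRT73 3, KRT39 2, and KRT84, KRT85, KRT36 and KRT24 1 each. KRT31, KRT32, KRT33B, KRT34, KRT35, KRT37, KRT38, KRT82 and KRT83 of the hair shaft had no count, nor did KRT25, KRT26, KRT27, KRT28, KRT40, KRT71, KRT72, KRT75 or the corneal KRT12.

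**Figure D2:**
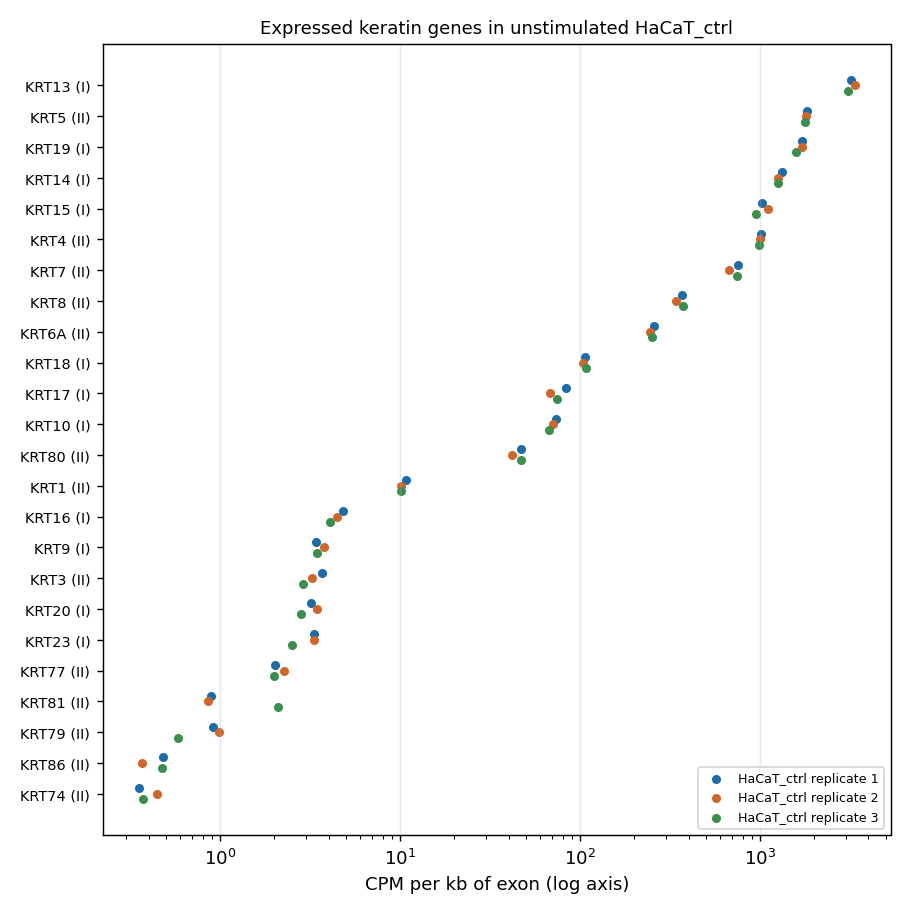
CPM per kb of exon (log axis) of the 24 expressed keratin genes, ordered by mean, with the keratin type in brackets and 1 point for each HaCaT_ctrl library. KRT13, KRT5, KRT19 and KRT14 are highest, and a gap separates the genes down to KRT80 (45.3 CPM per kb) from KRT1 (10.4 CPM per kb) and those below it.

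Of other intermediate filaments, the nuclear lamins LMNA (897 CPM), LMNB2 (289 CPM) and LMNB1 (112 CPM) were the most strongly read. VIM, the filament protein of mesenchymal cells and of many cultured lines, had 36, 32 and 31 counts in replicates 1, 2 and 3, or 2.14 ± 0.390 CPM (SD, n = 3). Per kb it stood at 0.000551 of KRT5. NES and SYNM averaged 8.26 and 4.99 CPM, and DES, GFAP, NEFM and NEFH had no count.

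The cornified envelope list was split, with 14 of 30 members expressed, 12 below the threshold and 4 with no count. The plakin periplakin (PPL) averaged 695 ± 22.2 CPM, involucrin (IVL), an early envelope protein, 506 ± 39.7 CPM, envoplakin (EVPL) 155 CPM, the crosslinking transglutaminase TGM1 139 ± 5.88 CPM and cystatin A (CSTA) 70.4 CPM (SD, n = 3). Genes of the later steps were lower. Filaggrin (FLG), the keratin-bundling protein of the granular layer, had 2.29, 2.46 and 2.82 CPM, and loricrin (LORICRIN), the main protein of the mature envelope, had 4 counts in all. FLG2 had 2 counts, CDSN 3, KRTDAP 6 and TGM3 2, while HRNR, SPRR2B, SPRR2G and LCE3D had none. The small proline-rich SPRR3 and SPRR1A averaged 16.4 and 10.6 CPM. FLG, FLG2 and HRNR overlap the expressed antisense gene FLG-AS1 (14.8 CPM), and although the library kit keeps strand, whether the counting used it is not given in the sources used here.

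**Figure D3:**
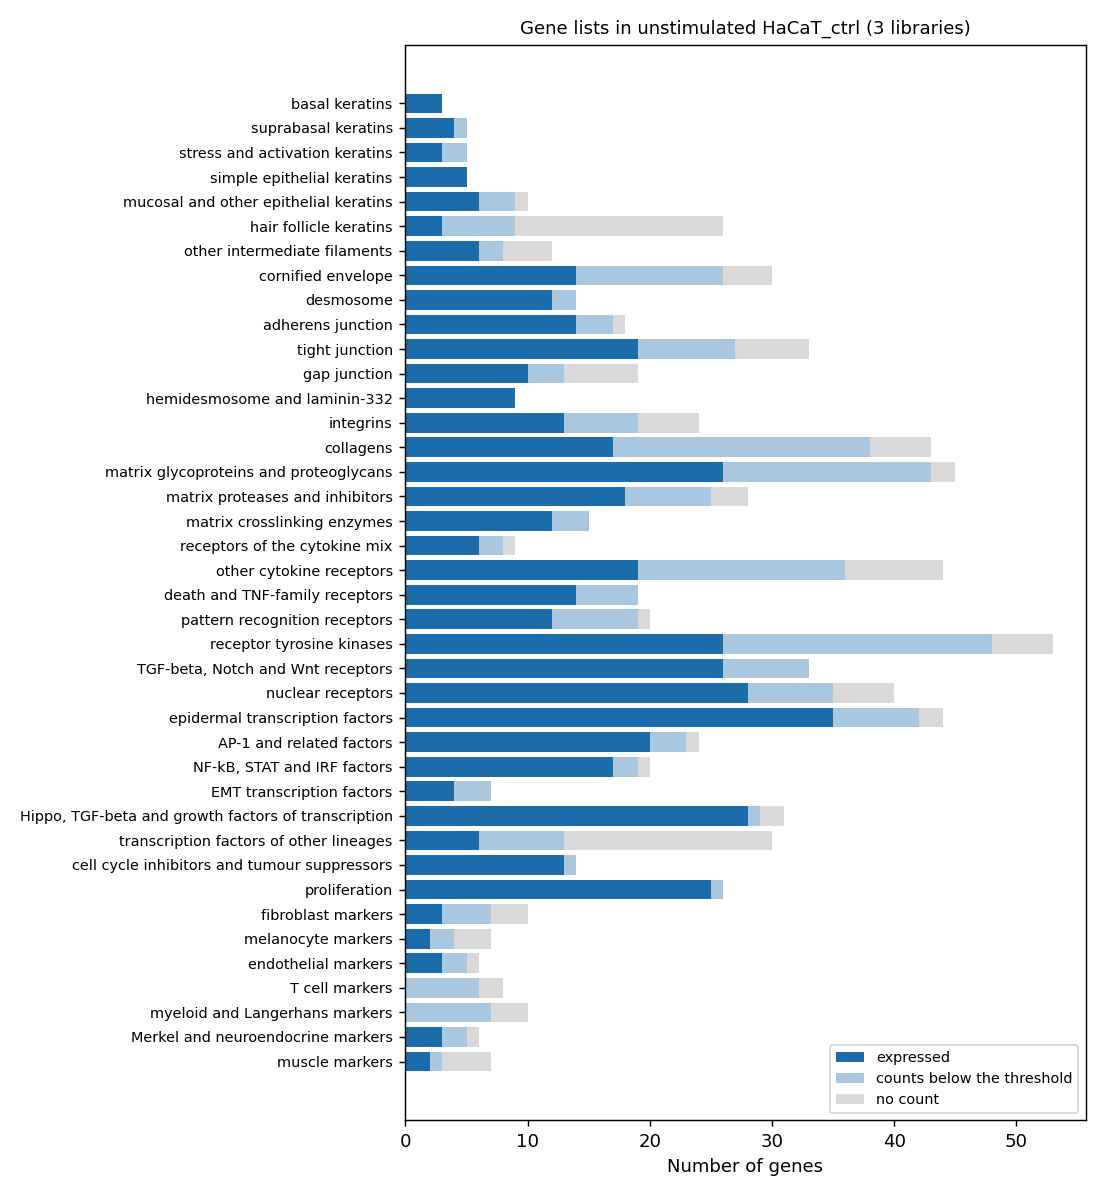
Number of genes in each list that were expressed, had counts below the threshold of 1 CPM in at least 2 of the 3 HaCaT_ctrl libraries, or had no count. All 9 genes of hemidesmosomes and laminin-332 were expressed, while none of the 8 T cell or 10 myeloid markers was.

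Desmosomes, the spot junctions that tie keratin filaments of neighbouring cells together, were represented by 12 of 14 members. The median expressed member stood at 96.2 CPM per kb. The desmosomal cadherin DSG2 had 187, 197 and 188 CPM per kb in replicates 1, 2 and 3 and DSG3 had 106, 109 and 105. DSG3 therefore stood at 0.558 ± 0.00620 of DSG2 (SD, n = 3), and at 0.930 over all annotated exons. DSC3 averaged 89.1 CPM per kb and DSC2 13.4, or 675 and 165 CPM. The exon length taken for DSC2 is long (12331 bases, against 7583 for DSC3), so the size of the gap per kb rests partly on that length. The armadillo proteins plakoglobin (JUP, 278 CPM per kb) and plakophilin 1 (PKP1, 150) and the keratin linker desmoplakin (DSP, 80.3) stood in the same range. DSG1 and DSC1, the desmosomal cadherins of the upper epidermis, had 4 and 13 counts in all. DSG4, known from the hair follicle, averaged 94.1 CPM.

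Adherens junctions were covered by 14 of 18 members. The classical cadherins CDH1 (E-cadherin) and CDH3 (P-cadherin) averaged 407 ± 2.45 and 437 ± 4.13 CPM (SD, n = 3). Per kb CDH1 stood at 0.862 ± 0.00826 of CDH3, and at 0.980 over all annotated exons. CDH2 (N-cadherin) averaged 5.62 CPM. Of the cytoplasmic partners, CTNND1 (p120-catenin) averaged 163 CPM per kb, CTNNA1 118 and CTNNB1 44.6. NECTIN1, an immunoglobulin-like adhesion receptor, averaged 161 CPM per kb. CTNNA2 had no count.

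Tight junctions seal the space between cells, and 19 of 33 members were expressed. That is near the share of all protein-coding genes (11838 of 19404). CLDN1, a claudin needed for the barrier of the epidermis, had 876, 949 and 856 CPM in replicates 1, 2 and 3. CLDN7 averaged 297 ± 9.18 and CLDN4 260 ± 4.04 CPM (SD, n = 3), and per kb the order was CLDN1 (259), CLDN7 (193), CLDN4 (154). The adhesion molecule F11R averaged 344 CPM, while occludin (OCLN) averaged 46.6 CPM. CLDN5 of endothelium, CLDN10, CLDN14, CLDN18, CLDN19 and CLDN20 had no count. CLDN6 had 8 counts and overlaps TNFRSF12A on the opposite strand.

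Gap junction genes, whose connexins form channels between cells, were the lowest of the junction lists, with 10 of 19 expressed at a median of 2.84 CPM per kb. The connexin GJB5 averaged 31.4 CPM per kb and the pannexin PANX1 16.3 CPM per kb. GJB2 and GJA1, widely known connexins of the epidermis, averaged 5.80 and 3.64 CPM, and GJB6 had 15 counts in all. GJA3, GJA4, GJB7, GJD2 and PANX3 had no count.

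Every one of the 9 genes of hemidesmosomes and their ligand laminin-332 was expressed, at a median of 129 CPM per kb. The integrin chains ITGA6 and ITGB4, which form a single receptor, averaged 129 ± 2.63 and 138 ± 5.75 CPM per kb (SD, n = 3), a ratio of 0.936 ± 0.0205. ITGA6 was the lower of the pair in every library. COL17A1, the transmembrane collagen of the hemidesmosome, averaged 150 CPM per kb, the tetraspanin CD151 191, and the linkers PLEC and DST 25.7 and 8.77. The laminin-332 chains LAMB3 and LAMA3 were far apart. LAMB3 had 292, 295 and 273 CPM per kb and LAMA3 21.8, 21.4 and 21.2 in replicates 1, 2 and 3, so LAMA3 stood at 0.0751 ± 0.00244 of LAMB3 (SD, n = 3). The canonical LAMA3 transcript is the long form, and a shorter form known from the epidermis would give a higher level per kb.

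Of the remaining integrins 13 of 24 were expressed. ITGA3 (513 CPM), the laminin-binding partner of ITGB1 (402 CPM), ITGA2 (240 CPM), ITGAV (180 CPM) and ITGB6 (111 CPM) led them. The fibronectin-binding ITGA5 averaged 6.39 CPM. ITGA8, ITGA9, ITGA11 and the leukocyte chains ITGAL and ITGAX had no count.

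Apart from COL17A1, given above with the hemidesmosome (840 CPM), 17 of 43 collagen genes were expressed, with a median of 2.12 CPM per kb among those, below the 8.97 CPM per kb of all expressed genes. COL7A1, which forms the anchoring fibrils beneath the epidermis, was the highest of these 43 at 152, 171 and 146 CPM in replicates 1, 2 and 3. COL12A1 (70.5 CPM) followed, with the basement membrane chains COL4A2 (56.9 CPM) and COL4A5 (51.3 CPM), and COL18A1 (29.1 CPM). COL1A1 averaged 17.3 CPM whereas COL1A2, the second chain of type I collagen, had no count, and COL3A1 had 9 counts in all. COL6A5, COL14A1, COL19A1 and COL24A1 had no count either.

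Matrix glycoproteins and proteoglycans were expressed in 26 of 45 cases, also near the share of all protein-coding genes. AGRN (788 ± 34.1 CPM), LAMA5 (669 CPM), the integrin ligand TGFBI (605 ± 11.1 CPM), LAMC1 (328 CPM) and EFEMP1 (294 CPM) were read most (SD, n = 3). The small proteoglycan DCN, known as a product of fibroblasts, had 206, 243 and 195 CPM in replicates 1, 2 and 3. FN1 (fibronectin) averaged 6.50 CPM and its libraries disagreed, as described below. VTN and POSTN had no count. Of 28 matrix proteases and inhibitors 18 were expressed, led by the membrane-bound MMP14 (322 ± 6.38 CPM), the plasminogen activators PLAU (181 CPM) and PLAT (136 CPM), TIMP3 (135 CPM) and SERPINB2 (105 CPM). MMP9 had 2 counts, and MMP3, MMP26 and MMP27 had none. Of 15 matrix crosslinking and collagen-modifying genes 12 were expressed, with P4HB (455 CPM), SERPINH1 (226 CPM) and BMP1 (202 CPM) highest and the lysyl oxidase LOX at 2 counts.

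**Figure D4:**
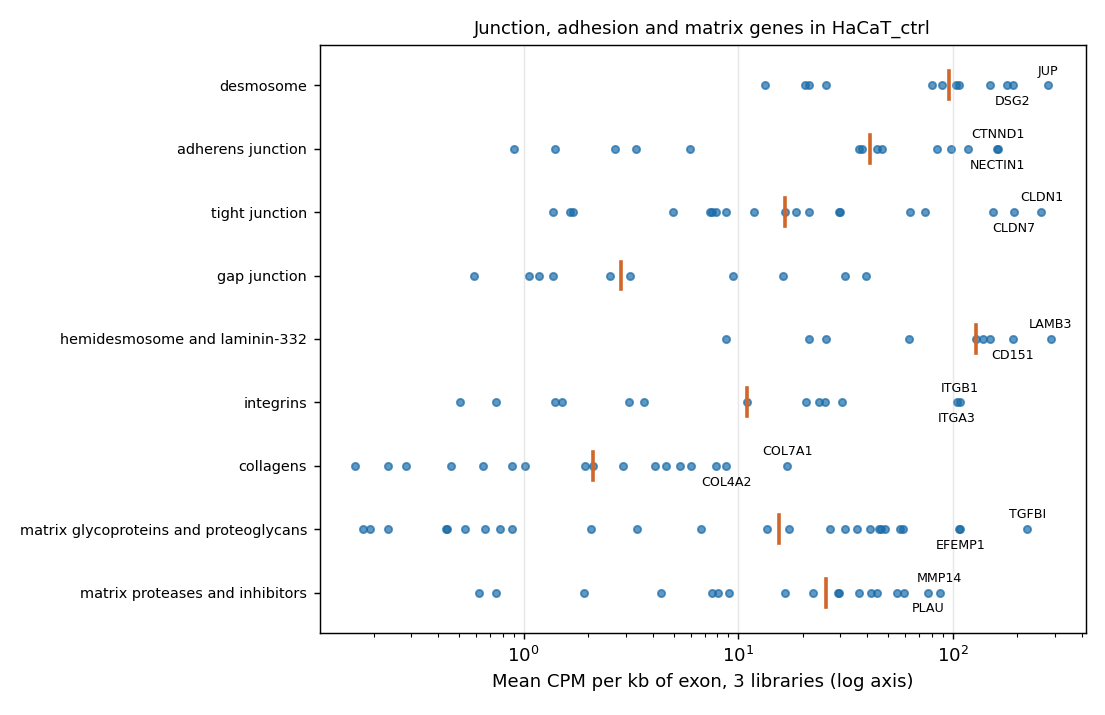
Mean CPM per kb of exon over the 3 HaCaT_ctrl libraries (log axis) of each expressed gene of the junction, adhesion and matrix lists, with the median of each list as a bar and the 2 highest genes of each list other than gap junctions named. Medians run from 2.12 CPM per kb for collagens other than COL17A1 to 129 CPM per kb for hemidesmosomes and laminin-332.

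The receptor chains of the cytokines used elsewhere in the series were read in these unstimulated cells, 6 of 9 being expressed. TNFRSF1A, the main TNF receptor of epithelial cells, had 201, 203 and 191 CPM in replicates 1, 2 and 3, whereas TNFRSF1B had 3, 5 and 6 counts. Of the interferon-γ receptor, IFNGR1 averaged 60.6 ± 0.974 and IFNGR2 22.8 ± 1.92 CPM per kb, a ratio of 2.67 ± 0.220 (SD, n = 3). That ratio was 2.33 over all annotated exons. The IL17 receptor chains IL17RA and IL17RC, which act together, averaged 6.81 ± 0.296 and 7.52 ± 0.350 CPM per kb. IL17RC stood at 1.11 ± 0.0542 of IL17RA, and at 0.637 over all annotated exons, so the order of this pair turns with the length taken. IL17RE averaged 17.6 CPM, IL17RD had 17 counts in all, and IL17RB had no count.

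Of 44 further cytokine receptors 19 were expressed. IL20RB (156 CPM), IL13RA1 (125 CPM), the shared signal chain IL6ST (115 CPM), the oncostatin M receptor OSMR (98.2 CPM) and IL4R (96.9 CPM) led. IL22RA1, a receptor chain for IL22, averaged 3.33 CPM. IL18RAP, IL2RA, IL22RA2, IL23R, IL31RA, CXCR3, CXCR4 and CCR2 had no count. Of 19 death and TNF-family receptors 14 were expressed, with TNFRSF21 (136 CPM), LTBR (119 CPM), TNFRSF12A (61.3 CPM), TNFRSF10B (54.5 CPM) and TNFRSF14 (32.7 CPM) highest and FAS at 10.2 CPM. LTBR overlaps the more strongly read SCNN1A (189 CPM) on the opposite strand, which makes its value uncertain. Of 20 pattern recognition receptors 12 were expressed, all at under 50 CPM, with NOD1 (48.0 CPM), the RNA sensors IFIH1 (38.4 CPM), TLR3 (34.9 CPM) and RIGI (25.3 CPM), and NLRP1 (24.0 CPM) leading and TLR8 without a count.

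Receptor tyrosine kinases were expressed in 26 of 53 cases. EGFR, the epidermal growth factor receptor, had 891, 856 and 863 CPM in replicates 1, 2 and 3 and stood 2.20 ± 0.0565 times as high per kb as ERBB2 (SD, n = 3). Over all annotated exons EGFR stood 3.09 times as high as ERBB2. The collagen receptor DDR1 averaged 586 ± 22.7 CPM, IGF1R 224 CPM, MET 218 CPM and PTK7 207 CPM. Per kb DDR1 (153) was above EGFR (87.9), an order that held over all annotated exons (64.2 and 54.6). INSRR, FLT3, TIE1 and EPHA8 had no count. Of 33 receptors of the TGF-β, Notch, Wnt and hedgehog pathways 26 were expressed and none was without a count, led by NOTCH1 (192 CPM), FZD6 (171 CPM), BMPR2 (131 CPM), NOTCH2 (113 CPM) and TGFBR2 (81.0 CPM).

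Of 40 nuclear receptors 28 were expressed. RXRA, the common partner of several of them, had 628, 613 and 597 CPM in replicates 1, 2 and 3, and the retinoic acid receptor RARG 251, 255 and 241 CPM. ESRRA averaged 128 CPM, the glucocorticoid receptor NR3C1 126 CPM, NR1D2 88.0 CPM and the vitamin D receptor VDR 74.0 CPM. RARA (20.1 CPM) and RARB (2.05 CPM) were well below RARG, also per kb (6.13 and 0.656 CPM per kb, against 85.3). RXRG, the oestrogen receptor ESR1, NR1I2, NR1I3 and NR5A1 had no count.

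Epidermal transcription factors were expressed in 35 of 44 cases, with a median of 11.9 CPM per kb. The epithelial factors ELF3 (402 ± 26.7 CPM), KLF5 (395 ± 11.8 CPM) and EHF (320 CPM) were among the highest, followed by TP63, the master regulator of stratified epithelia, with 232, 235 and 235 CPM in replicates 1, 2 and 3, and GATA3 with 205 ± 11.9 CPM (SD, n = 3). Per kb TP63 stood 2.01 ± 0.0219 times as high as GRHL2, and 1.54 times as high over all annotated exons. KLF4 and GRHL3, factors of terminal differentiation, averaged 18.7 and 25.5 CPM. ZNF750, another such factor, had 20 counts in all and overlaps TBCD on the opposite strand. TFAP2B and MSX1 had no count.

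Of 24 AP-1 and related factors 20 were expressed, with NFE2L1 (528 CPM), JUNB (228 CPM), ATF4 (214 CPM), FOSL2 (201 CPM) and NFE2L2 (167 CPM) highest, JUN at 23.3 CPM, FOS at 10.4 CPM and BATF3 without a count. NFE2L2 overlaps the more strongly read HNRNPA3 (271 CPM) on the opposite strand, which makes its value uncertain. Of 20 NF-κB, STAT and IRF factors 17 were expressed, among them STAT6 (313 CPM), STAT3 (230 CPM), IRF1 (182 CPM) and STAT2 (117 CPM). STAT5A had no count, and it overlaps STAT5B (48.5 CPM) on the opposite strand. Of 31 factors of the Hippo, SMAD, MYC and E2F families and related regulators 28 were expressed, with SREBF1 (596 CPM), SMAD3 (328 CPM), SREBF2 (284 CPM) and YAP1 (244 CPM) highest and MYCN and LEF1 without a count.

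Of 7 factors of the epithelial to mesenchymal transition, SNAI2 was the only one above 5 CPM, at 60.6, 62.6 and 61.6 CPM in replicates 1, 2 and 3. SNAI3, TWIST1 and TWIST2 averaged 2.91, 1.49 and 1.43 CPM, and SNAI1, ZEB1 and ZEB2 had 4, 9 and 1 counts in all. Factors that define other lineages were expressed in 6 of 30 cases. FOXA1, a factor of inner epithelia, had 73.9, 78.4 and 80.2 CPM, GATA2 28.3 CPM, MITF 14.9 CPM, and NKX2-1, known from lung and thyroid, 8.94, 8.83 and 8.82 CPM. POU5F1 averaged 7.34 CPM and overlaps the more strongly read TCF19 (44.9 CPM), which makes its value uncertain. Of the 17 without a count, NANOG, SOX10, MYOD1, MYOG, MYF5, GATA1, SPI1, TBX21, NKX2-5 and FOXA2 are the first in list order.

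Genes of the dividing cell were read throughout, 25 of 26 being expressed. CCND1 averaged 675 ± 29.9 CPM, TOP2A 382 CPM, MCM7 298 CPM and PCNA 212 CPM (SD, n = 3). MKI67, the common proliferation marker, had 321, 269 and 336 CPM in replicates 1, 2 and 3, so replicate 2 was the lowest, as it was for the summed level of the list (3656, 3343 and 3806 CPM). TERT, the catalytic chain of telomerase, had 3, 4 and 6 counts. Of 14 cell cycle inhibitors and tumour suppressors 13 were expressed, led by stratifin (SFN, 721 ± 8.95 CPM). RBL2 averaged 227 CPM and CDKN2B 160 CPM. CDKN2A averaged 71.2 ± 1.51 CPM and CDKN1A 73.7 CPM.

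Further genes of interest were the targets and normalisers of qPCR assays run beside the sequencing. IQGAP3, a scaffold protein and the target of the knockdown in the other line, had 81.5, 76.4 and 84.3 CPM in replicates 1, 2 and 3. Per kb it stood at 0.158 ± 0.00318 of its paralogue IQGAP1 (611 ± 18.1 CPM), and IQGAP2 had 12 counts in all (SD, n = 3). Over all annotated exons IQGAP3 stood at 0.226 of IQGAP1. S100A8 had 9.94, 7.06 and 7.06 CPM and FOSL1 11.4, 9.59 and 10.8 CPM, both low in these unstimulated cells. The normalisers B2M, GAPDH and GUSB averaged 2090 ± 96.0, 1903 ± 74.9 and 38.3 ± 2.43 CPM.

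Markers of other cell types were near the floor for blood cells and mixed for the rest. None of 8 T cell markers was expressed, with summed levels of 0.858, 1.07 and 0.471 CPM in replicates 1, 2 and 3, and CD2 and CD3D at 0. None of 10 myeloid and Langerhans markers was expressed either (0.787, 1.14 and 1.18 CPM), with CD163, CD207 and CD1A at 0. Of 10 fibroblast markers DCN, COL1A1 and LUM were expressed (summed level of the list 231, 266 and 218 CPM), with COL1A2, POSTN and FAP at 0. Of 7 melanocyte markers MITF and PMEL were expressed (18.5 CPM in replicate 1, 18.0 CPM in replicate 2 and highest in replicate 3), with MLANA, TYR and SOX10 at 0. Of 6 endothelial markers CDH5, VWF and ESAM were expressed (23.2, 21.1 and 22.4 CPM), with CLDN5 at 0. KRT20, ISL1 and SYP of 6 Merkel cell markers and TAGLN and ACTA2 of 7 muscle markers were expressed, with ATOH1 and with DES, MYH11, CNN1 and MYOG at 0. PMEL, TAGLN and ACTA2 overlap the more strongly read CDK2 (66.9 CPM), PCSK7 (61.7 CPM) and FAS (10.2 CPM) on the opposite strand. The values of these 3 markers are uncertain for that reason. In bulk RNA a few cells with much of a transcript and many with little cannot be told apart.

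Noncoding genes contributed 1028 expressed genes of the long noncoding classes. The nuclear RNAs NEAT1 and MALAT1 led with 1298 ± 226 and 1064 ± 89.8 CPM, followed by NORAD (925 ± 8.08 CPM), SNHG29 (638 CPM) and MIR205HG, the host transcript of an epithelial microRNA (479 CPM) (SD, n = 3). Replicate 2 was the highest for NEAT1, with 1558 CPM against 1183 and 1151 CPM in replicates 1 and 3.

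The replicates lay close together. The median coefficient of variation over the 3 libraries was 5.04% for expressed genes. The median of the expected counting error, taken from the mean count of each gene, was 4.71%. These are unlike measures, because a median of spreads from 3 libraries tends to fall below the true spread. At 1 to 5 CPM the observed median was even below the expected counting error of 16.9%. How much of the spread is counting error cannot be read from them. It was 15.4% for the 2460 genes of 1 to 5 CPM, 5.51% for the 6388 genes of 5 to 50 CPM, 3.12% for the 4402 genes of 50 to 500 CPM and 2.48% for the 239 genes of at least 500 CPM. In that last class the median expected counting error was 0.903%. The common biological coefficient of variation estimated by edgeR over expressed genes was 3.40%. With 0.5 CPM added to each value, between 5 and 6 expressed genes differed at least 2-fold in any pair of libraries. The addition shrinks the folds of low genes. RN7SK, at 12.9 and 6.37 CPM in replicates 1 and 2, was not counted for that pair, so in plain CPM more genes differ 2-fold. Across genes, which are not independent replicates, log2 CPM with the same addition correlated at 0.996 to 0.997 between libraries. The libraries differed by more than counting error (chi-square per gene of 1.66 to 3.40), so none is a copy of another. Nothing in the sources says how the biological replicates were separated beyond that name.

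The genes that varied most, among those of at least 5 CPM, included several of the matrix and the cytoskeleton. FN1 had 99, 54 and 153 counts in replicates 1, 2 and 3, which gave a mean of 6.50 CPM with a coefficient of variation of 43.8% where counting gives 9.90%. FST, a secreted inhibitor of activin, had 18.0, 10.7 and 25.7 CPM (41.3%). The matrix protein TNC had 9.73, 4.29 and 8.53 CPM (38.0%) and the actin-binding TAGLN 6.87, 3.41 and 7.47 CPM (37.1%). For these 4 genes and for CDH2 (5.62 CPM), KIF9, LINC00707 and RN7SK replicate 2 was the lowest library. SERPINF1 (7.87, 10.9 and 6.06 CPM) and LCAT had their highest value in replicate 2. Of the 50 most variable genes replicate 2 was the farthest from the other libraries in 27, high in 15 and low in 12, and over all genes of at least 5 CPM it was the farthest in 38.4%, with 28.6% for replicate 1 and 33.0% for replicate 3.

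**Figure D5:**
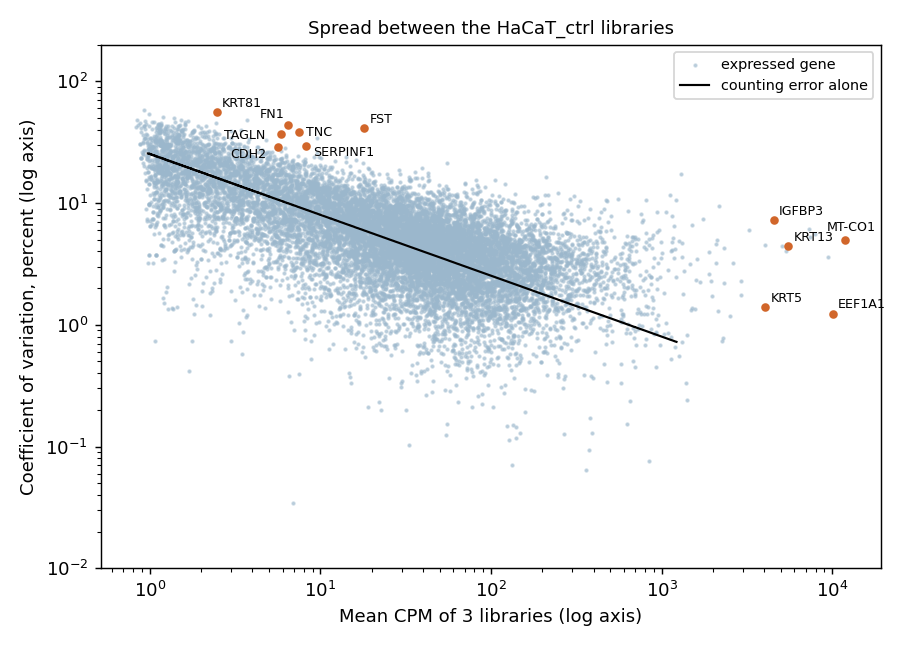
Coefficient of variation over the 3 HaCaT_ctrl libraries (percent, log axis) against mean CPM (log axis), with 1 point for each expressed gene. The line is a running median of the expected counting error. FN1 (43.8%) and FST (41.3%) lie well above the line, and the abundant KRT5 (1.39%) and EEF1A1 (1.23%) vary less than most genes, although counting error alone would give them still less.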

How the data were processed

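RNA was sequenced from 12 cultures, of which the 3 unstimulated HaCaT_ctrl libraries were analysed here. The authors trimmed reads with Cutadapt, aligned them to hg19 with STAR using the Gencode 19 annotation, and deposited whole-number read counts per Ensembl gene. Libraries were made with a directional kit, which keeps strand. The read counter is not given in the sources used here, nor is its strand setting. Levels of genes that overlap another expressed gene on the opposite strand, such as STAT6 with LRP1 (240 CPM), are therefore uncertain, also where the text does not say so. A deposited table of normalised values was not used. Columns without a sample numbered 0.

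Counts were divided by the library total. Gene names, positions and exon lengths (Ensembl canonical transcript) came from Gencode v44lift37 on GRCh37, which named 55010 of 57370 identifiers. The 2360 others held 0.862% of counts. Of 825 entries in 41 gene lists 820 matched. NEFL, GJA5, MMP12, MMP28 and PECAM1 did not match. The threshold adapts a filter of the study, which asked for the same level in a share of all samples of each comparison, to the libraries of 1 group. The text names, by rule, the 25 highest nuclear genes by CPM and by level per kb, the 5 highest expressed members of each list and up to 10 without a count, all keratins with counts, the qPCR genes, the cytokine receptor chains, the 5 highest noncoding genes and the 10 most variable genes. Some genes that this rule takes in are not reported here. Other genes were added after their values were seen, for their known roles. The members and lists were chosen with earlier results of these data known. No test was made, since only 1 group is described. Python 3.11.15, pandas 2.3.3, R 4.3.3, edgeR 4.0.16 and DESeq2 1.42.0 were used. The estimate of spread was tested on simulated data. Alternatives changed the threshold, the scaling, the exon length and the libraries used.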

Additional observations from a re-analysis of the deposited data

How the results depend on the processing

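The number of expressed genes lay between 11031 (threshold of 5 CPM) and 14819 (0.5 CPM), and between 13308 and 13337 with any 1 library left out. Genes without a count rose to 37032 when fewer than 3 counts over the group were taken as none. The 20 genes with most counts held 6.81% of counts without mitochondrially encoded genes, and 10.2% to 10.5% with any 1 library left out. The median coefficient of variation was 15.2% over all genes with a count, 4.24% over genes of at least 5 CPM, and 3.81% to 4.52% with any 1 library left out, lowest without replicate 2. The values with 1 library left out rest on fewer libraries, which by itself lowers such a median. They therefore do not show a closer spread. At 5 CPM the expressed members fell to 9 for the cornified envelope, to 0 for hair keratins and to 1 each for EMT factors, melanocyte markers and Merkel markers, and the other 36 lists stayed within 1.5 times. Exon length moved most levels per kb: over all annotated exons, a choice added after seeing the data, KRT5 had 975, KRT14 929, KRT4 745, KRT13 1891 and KRT19 992 CPM per kb. Scaling by TMM or by median-of-ratios size factors gave 13538 expressed genes each. No paired analysis was possible because a single group is described and no test was made. Genes below about 5 CPM are limited by depth, since 1 count is worth 0.0588 to 0.0715 CPM.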

Other observations

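The genes below, each known from secretory or glandular epithelia, were picked after their values were seen. They are no fixed list, low genes of the same kind were not surveyed, and no test was made of them. SCGB1A1 had 1299, 1380 and 1295 CPM in replicates 1, 2 and 3. The iron-binding lipocalin LCN2 averaged 445 ± 22.6 CPM, the secretory pathway protein AGR2 174 ± 9.43 CPM, the surface glycoprotein CEACAM5 130 ± 2.31 CPM and the immunoglobulin transporter PIGR 109 ± 6.88 CPM (SD, n = 3). The protease inhibitor SLPI averaged 108 ± 4.51 CPM and the airway protein BPIFB1 84.3 ± 7.19 CPM. The mucins MUC4, MUC16 and MUC1 averaged 83.1, 59.4 and 56.6 CPM, where the median expressed gene stood at 28.9 CPM. Each of these genes had a coefficient of variation of under 10% over the libraries, and replicate 2 was the highest for SCGB1A1, LCN2, PIGR, SLPI, BPIFB1, MUC4 and MUC1. The keratinocyte markers KRT5, KRT14 and TP63 stood at 4031, 2094 and 234 CPM in the same libraries, and the lung and thyroid factor NKX2-1 at 8.86 CPM. Whether the same cells carry these and the keratinocyte markers was not tested, as the libraries are from bulk RNA.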
